A study of Arabidopsis thaliana with 24 samples.

Results

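The high light response of the Arabidopsis mutant hy5-2, which lacks the transcription factor HY5, was measured by RNA-seq in 8 of the 24 libraries of the series. These were the 4 libraries of hy5-2 leaves after 3.5 h of high light (HL, about 1100 µmol photons per square metre per second of white LED light) and the 4 of hy5-2 leaves kept in growth light (low light, LL, 150 µmol per square metre per second). The 4 HL and 4 LL libraries of the wild type Col-0 served as the comparison, and 8 libraries of the BBX32 over-expressing line BBX32-10 entered the fit only through the shared estimate of the spread. The mutation hy5-2 is a single allele in the Col-0 background, so all results on the absence of HY5 rest on that allele. All plants were 35 days old, grew in short days, and gave fully expanded leaves. Each library came from 1 plant, with 4 leaves pooled per plant. Libraries were chosen by their labels alone and by no measured value.

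Strong light delivers more energy to chloroplasts than carbon fixation can use, and the surplus forms reactive oxygen species. Leaves are known to respond by lowering the synthesis of light-harvesting proteins, raising carbon metabolism, antioxidants and chaperones, and making flavonoids that screen light. HY5 is a bZIP transcription factor that acts below the phytochromes, cryptochromes and the UV-B receptor. It binds DNA letters with an ACGT core, among them the G-box, and the ubiquitin ligase COP1 targets it for breakdown in darkness.

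HY5 RNA (AT5G11260, chr5:3593335-3595073) checked the labels. It was at 0.371, 0.929, 0.196 and 0.499 FPKM in the 4 hy5-2 HL libraries, and at 0.888, 0.862, 0.274 and 0.82 FPKM in the 4 hy5-2 LL libraries. FPKM is a fragment count scaled by transcript length and by library size. All 8 hy5-2 values lay under 1 FPKM, against means of 21.4 ± 3.29 FPKM in Col-0 HL and 7.4 ± 0.899 FPKM in Col-0 LL (SD, n = 4 each). Depth recovered from the steps of the FPKM values ran from 37248318 to 49341933 fragments in hy5-2 HL and from 35672650 to 43486845 in hy5-2 LL. Replicate 4 of hy5-2 LL stood apart. Its correlation with the other libraries of its group was 0.974 to 0.977, and genes of the organelle genomes took 0.291% of its summed FPKM, against 0.0754% to 0.114% in the other 7 hy5-2 libraries. List counts that change without this library are given both ways, beside the result or with the dependence on processing. Leaf mesophyll markers summed to between 32751 and 38521 FPKM in hy5-2 HL and between 30151 and 34700 FPKM in hy5-2 LL. Of these 6 markers 4 were themselves called higher and 1 lower in HL. Root markers summed to between 2.19 and 11.4 FPKM in hy5-2 HL and between 1.59 and 7.97 FPKM in hy5-2 LL. Markers of seeds and of flowers and pollen summed to under 1 FPKM in every hy5-2 library. In whole leaves, fewer cells of a type and less RNA per cell cannot be told apart.

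Of 17788 genes tested, 7732 (43.5%) changed in hy5-2 at an adjusted p under 0.05. Of these, 4104 genes (23.1%) were higher and 3628 genes (20.4%) lower in HL. The change was at least 2-fold for 455 higher genes (2.56%) and 533 lower genes (3.0%), on the scale log2(FPKM + 1). Without replicate 4 of hy5-2 LL, 3568 genes were higher and 3941 lower. Since so many genes changed, each gene list is set against these shares. The 38 lists held 921 entries, of which 853 passed the filter on low values. Genes named with a change below held in each of the 8 refits without 1 hy5-2 library unless stated.

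**Figure D1:**
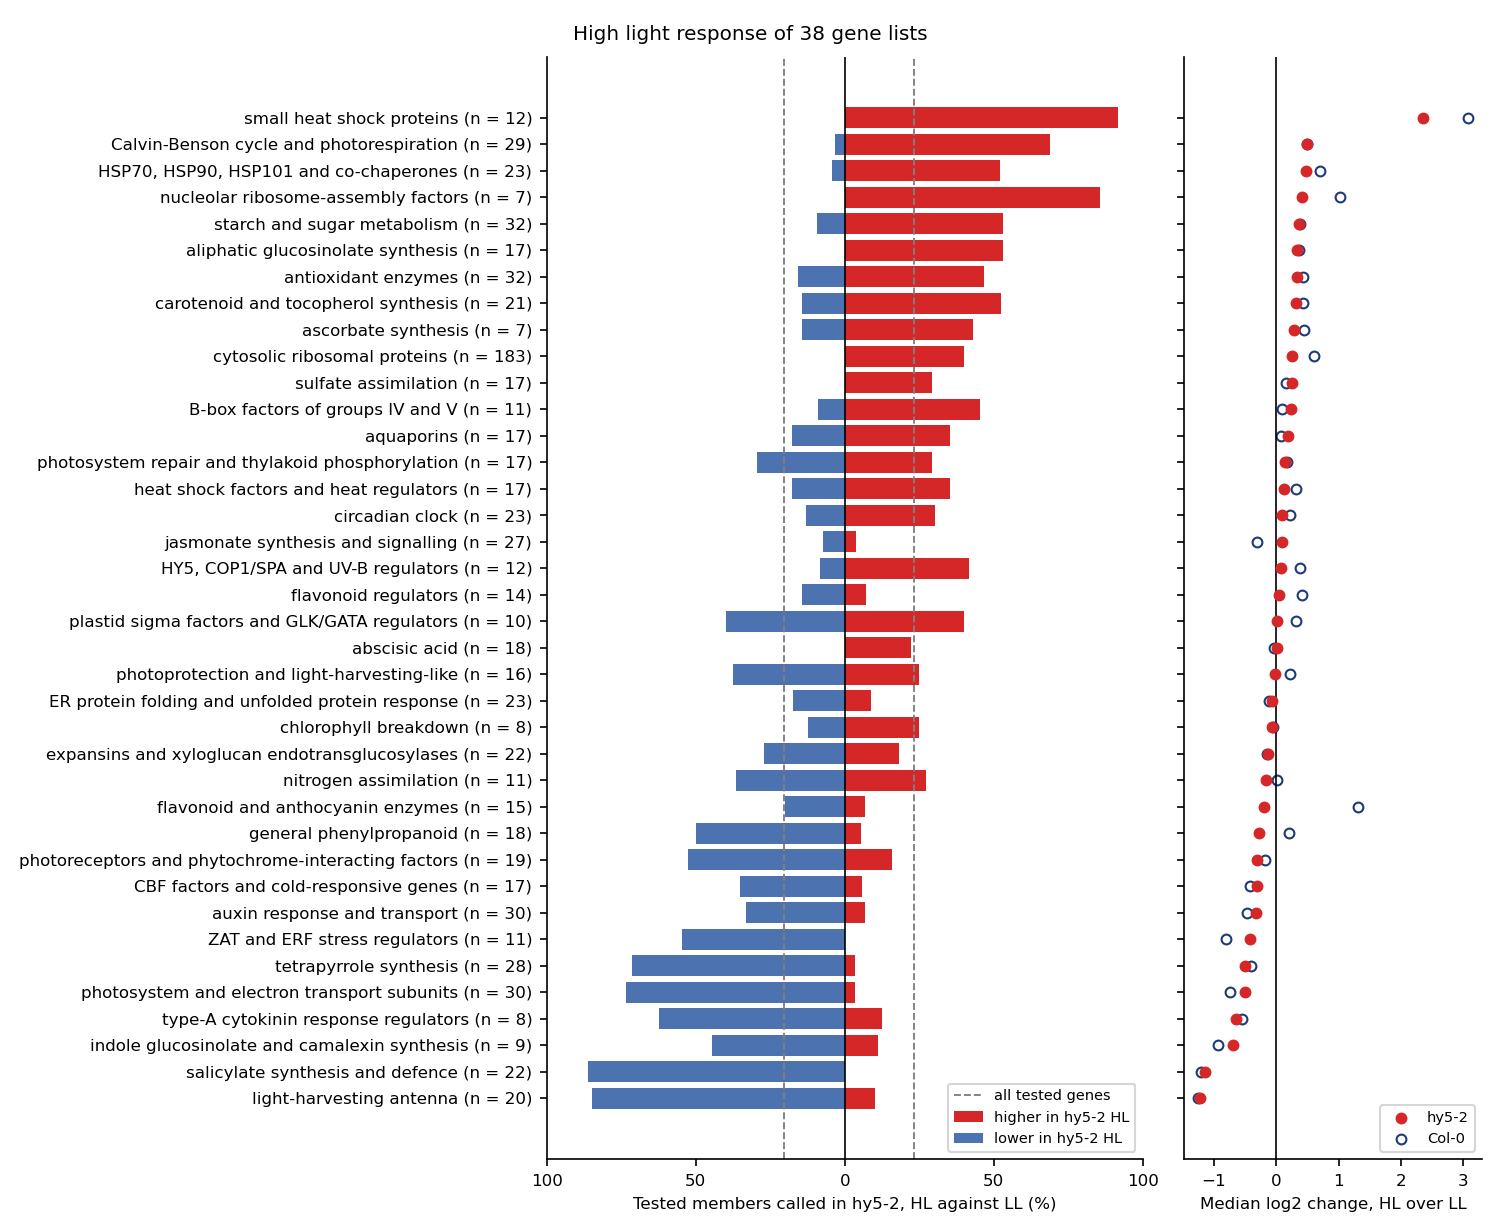
Left: the share of tested members of each of 38 gene lists called higher (red, to the right) or lower (blue, to the left) in hy5-2 HL against hy5-2 LL, in percent, with dashed lines at the shares of all tested genes, 23.1% higher and 20.4% lower. Right: the median log2 change of each list, HL over LL, in hy5-2 (filled) and Col-0 (open); small heat shock proteins lie at the top with a median of 2.35 in hy5-2, and the light-harvesting antenna at the bottom with -1.22.

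Promoters are shown for the 3 small heat shock genes with the largest rise in hy5-2, a response present without HY5, and for the 3 list members with the most negative called difference between the hy5-2 and Col-0 responses. Each is the 250 bases before the annotated gene start on TAIR10.1, read 5′ to 3′ on the gene's strand. In the first 3, capitals mark a heat shock element of 3 units, written GAANNTTCNNGAA or TTCNNGAANNTTC. In the last 3, capitals mark the letters ACGT.
HSP17.6B promoter (chr2:12634121-12634370, minus strand): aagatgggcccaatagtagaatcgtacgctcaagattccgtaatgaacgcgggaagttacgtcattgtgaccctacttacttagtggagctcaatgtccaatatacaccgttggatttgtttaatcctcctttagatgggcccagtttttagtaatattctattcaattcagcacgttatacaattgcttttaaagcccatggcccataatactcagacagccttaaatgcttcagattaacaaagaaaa
HSP23.5 promoter (chr5:20890913-20891162, plus strand): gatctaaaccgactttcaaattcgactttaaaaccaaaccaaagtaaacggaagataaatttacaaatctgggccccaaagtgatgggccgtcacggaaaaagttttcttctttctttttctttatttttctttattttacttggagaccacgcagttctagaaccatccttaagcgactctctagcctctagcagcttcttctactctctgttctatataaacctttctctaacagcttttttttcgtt
HSP17.6C promoter (chr1:19980049-19980298, plus strand): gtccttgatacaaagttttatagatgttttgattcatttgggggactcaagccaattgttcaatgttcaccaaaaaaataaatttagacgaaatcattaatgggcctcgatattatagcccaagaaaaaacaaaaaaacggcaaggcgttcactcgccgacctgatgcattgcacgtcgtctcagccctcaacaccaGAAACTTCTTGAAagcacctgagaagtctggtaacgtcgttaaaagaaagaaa
ELIP1 promoter (chr3:8085670-8085919, minus strand): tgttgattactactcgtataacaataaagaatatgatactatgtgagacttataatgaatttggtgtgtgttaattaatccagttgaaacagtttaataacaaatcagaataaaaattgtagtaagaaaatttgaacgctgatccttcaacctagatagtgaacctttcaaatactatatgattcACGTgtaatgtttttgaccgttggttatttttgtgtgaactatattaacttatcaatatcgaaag
CHIL promoter (chr5:1563036-1563285, plus strand): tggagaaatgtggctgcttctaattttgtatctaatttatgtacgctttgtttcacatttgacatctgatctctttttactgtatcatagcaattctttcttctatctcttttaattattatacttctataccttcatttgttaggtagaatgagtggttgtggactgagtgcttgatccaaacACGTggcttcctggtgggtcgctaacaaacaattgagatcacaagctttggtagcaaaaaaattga
CHS promoter (chr5:4488226-4488475, plus strand): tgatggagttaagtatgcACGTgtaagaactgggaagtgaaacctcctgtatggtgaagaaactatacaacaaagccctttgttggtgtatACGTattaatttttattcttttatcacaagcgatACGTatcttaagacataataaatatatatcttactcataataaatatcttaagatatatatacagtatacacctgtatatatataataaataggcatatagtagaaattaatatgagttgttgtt
The 3-unit element was found in HSP17.6C, beginning 53 bases before the gene start (-53), and in neither HSP17.6B nor HSP23.5. It was present in 2 of the 12 promoters of tested small heat shock genes (16.7%), in 1.33% of promoters of genes at least 2-fold higher in hy5-2, and in 0.407% of the 17670 promoters searched. After these matches were seen, a looser form of 2 units (GAANNTTC or TTCNNGAA, which also lies inside the 3-unit element) was added. It occurred at 2 places in HSP17.6C, at 1 in HSP23.5 and not in HSP17.6B, in 5 of the 12 small heat shock promoters (41.7%), and in 15.9% of all promoters. The letters ACGT were found once in ELIP1 (-65), once in CHIL (-66) and at 3 places in CHS (-232, -159 and -125), and 1 copy in each gene lay within a G-box, CACGTG. Letters ACGT, not in capitals there, were also present at 2 places each in HSP17.6B and HSP17.6C and were not found in HSP23.5, and none of these 3 held a G-box. All these motifs read the same or pair with each other on the opposite strand. ACGT was present in 46.4% of promoters of genes whose response was lower in hy5-2 than in Col-0, against 44.0% of all promoters, and the G-box in 13.6% against 7.45%. Among genes at least 2-fold higher in hy5-2 the shares were 45.9% for ACGT and 12.0% for the G-box. A match describes these letters only, and a missing match says only that they are not in this window.

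The largest rises without HY5 were in genes for heat shock proteins, chaperones that hold or refold damaged proteins. Of 16 small heat shock genes, 12 were tested, 11 were higher and none lower, with a median log2 change of 2.35, against -0.00194 over all tested genes. HSP17.6B (AT2G29500, chr2:12633065-12634120), a cytosolic small heat shock protein, was at 78.7, 249, 179 and 302 FPKM in hy5-2 HL and at 2.62, 2.26, 2.01 and 3.66 FPKM in hy5-2 LL. The lowest HL library was thus far above the highest LL library, and the ratio of means was 76.6 (log2 change 5.66, SE 0.41, adjusted p = 1.1e-09). HSP23.5 (AT5G51440, chr5:20891163-20892416), a mitochondrial small heat shock protein, was at 11.4, 35.5, 18.4 and 73.4 FPKM in hy5-2 HL against 0.61, 0.433, 0.33 and 1.11 FPKM in hy5-2 LL. Its log2 change was 4.16 (SE 0.39, adjusted p = 4.68e-08), although the 4 HL plants differed among themselves by more than 6 times. HSP17.6C rose by 3.56 on the log2 scale (adjusted p = 4.09e-06). HSP23.6, a second mitochondrial member, was at 1.31, 11.4, 7.17 and 23.1 FPKM in hy5-2 HL and was listed at 0 in all 4 hy5-2 LL libraries. Set against a floor of 3 fragments per library, its mean was at least 153-fold higher in HL, a bound that covers counting error only. The list's median stayed at 2.35 with HSP23.6 at that bound. HSP15.7 was the tested member not called (0.51), and HSP21, HSP22.0, HSP26.5 and HSP14.7 stayed under 1 FPKM in every hy5-2 library and did not pass the filter.

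Larger chaperones moved less uniformly. Of 23 tested genes for HSP70, HSP90, HSP101 and their partners, 12 were higher and 1 lower, with a median of 0.47. Without replicate 4 of hy5-2 LL the counts were 14 and 0. MED37C (AT3G12580, chr3:3991117-3993886), an HSP70 gene outside that list, was at 37.2, 57.6, 49.0 and 85.0 FPKM in hy5-2 HL and at 3.08, 3.84, 4.00 and 6.66 FPKM in hy5-2 LL, with no overlap and a log2 change of 3.41 (SE 0.31, adjusted p = 3.07e-08). HSP90.5, the chloroplast HSP90, was at 413, 514, 473 and 574 FPKM in hy5-2 HL and at 120, 127, 119 and 83.6 FPKM in hy5-2 LL, a log2 change of 2.13 (adjusted p = 9.76e-11). The co-chaperone Hop3 rose by 2.58 and the immunophilin ROF2 by 1.68. HSP70-3 was the one lower gene (-0.47, adjusted p = 0.0297), with overlapping groups, and was not called without replicate 4 of hy5-2 LL (-0.26, adjusted p = 0.15). The constitutive cytosolic genes HSP90.2, HSP90.3 and HSP90.4 had log2 changes between 0.00 and 0.01. Of 17 tested heat shock factors and regulators, 6 were higher and 3 lower, 52.9% called against 43.5% of all tested genes. HSFA3 rose by 1.19 and the coactivator MBF1C by 1.21, whereas HSFA1B, one of the constitutive factors, fell by 0.34. HSFA2 was called at 0.86 (adjusted p = 0.0159), with overlapping groups and in 6 of the 8 fits. Counts for Hop3, HSP70-3 and MBF1C are uncertain to the extent of the neighbouring genes that overlap them by 163, 863 and up to 176 bases. The 163-base neighbour averaged 12.8 FPKM in hy5-2 HL and 6.39 FPKM in hy5-2 LL, and the 863-base neighbour 0.29 and 0.27 FPKM. The 176-base neighbour of MBF1C was at 0, while REF1, which overlaps MBF1C by 124 bases, averaged 71.1 and 67.1 FPKM. Genes of protein folding in the endoplasmic reticulum moved little, with 2 of 23 higher, 4 lower and a median of -0.06; without replicate 4 of hy5-2 LL the counts were 6 and 3, and without replicate 2 of hy5-2 HL 2 genes were lower. BIP3, a stress form of the luminal HSP70, was among the lower ones (-2.06, adjusted p = 9.06e-05).

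**Figure D2:**
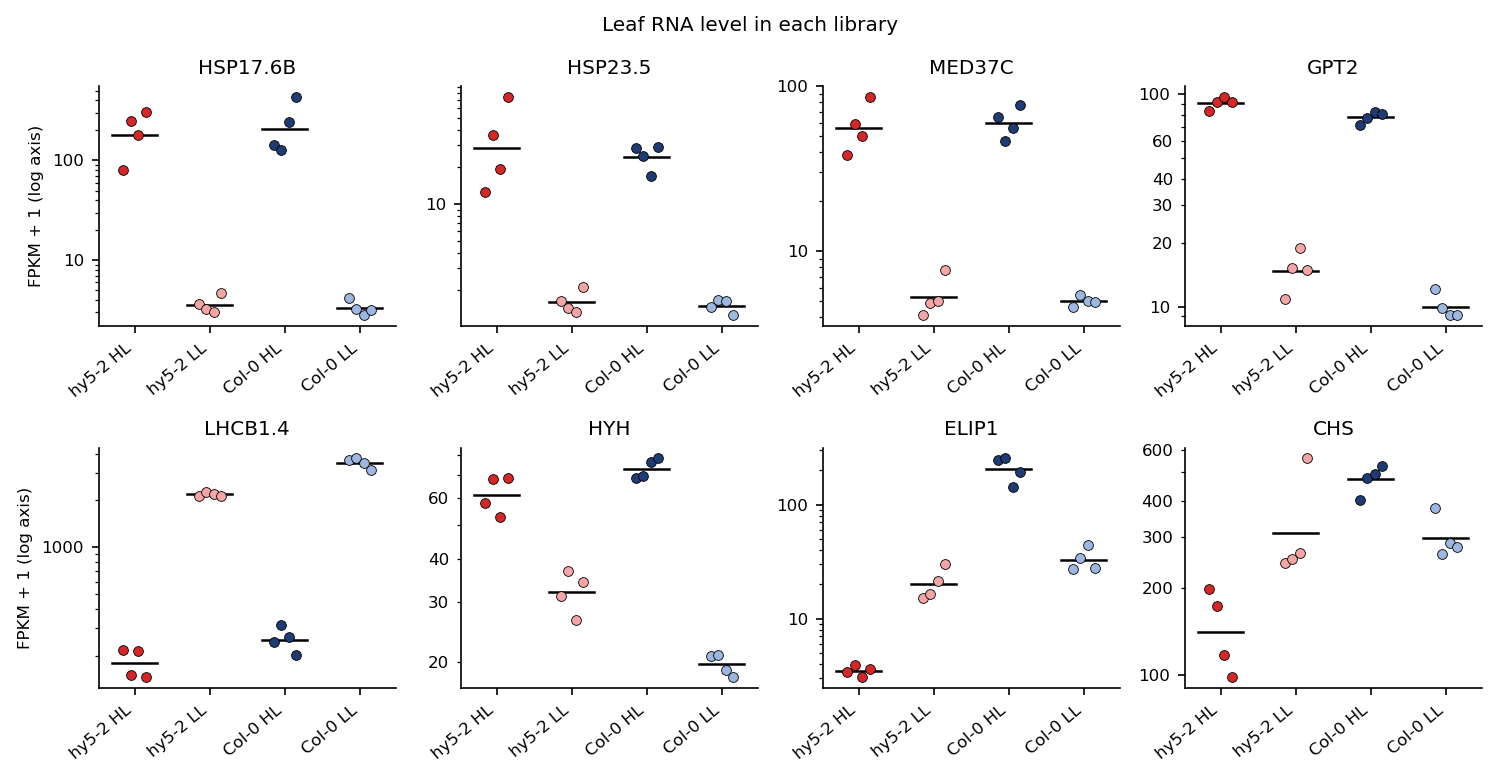
FPKM + 1 (log axis) of 8 genes in each library of hy5-2 HL, hy5-2 LL, Col-0 HL and Col-0 LL; points are libraries and lines are means on the log scale (n = 4 each). HSP17.6B, HSP23.5, MED37C, GPT2 and HYH were higher and LHCB1.4 lower in HL than in LL in both genotypes without overlap, whereas ELIP1 and CHS were lower in hy5-2 HL than in hy5-2 LL and higher in Col-0 HL than in Col-0 LL.

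Light-harvesting genes fell without HY5. Of 21 antenna genes, 20 were tested, 17 were lower and 2 higher, with a median log2 change of -1.22. LHCB1.4 (AT2G34430, chr2:14524607-14525918), a major photosystem II antenna protein, was at 217, 150, 212 and 145 FPKM in hy5-2 HL and at 2149, 2265, 2203 and 2148 FPKM in hy5-2 LL. Its ratio of means was 12.1 in favour of LL (log2 change -3.62, SE 0.21, adjusted p = 6.16e-11). Its transcript shares 91.44% identity over 806 bases with that of AT2G34420, which was listed at 0, so the split of fragments between the pair is uncertain. LHCB2.3 fell by 2.58, LHCB1.1 (AT1G29920) by 1.72 and LHCB3 by 1.3. The transcript of AT1G29920 is 93.64% identical over 1053 bases to that of AT1G29910. The 2 members that rose are minor antenna forms. LHCB4.3 was at 205, 282, 313 and 336 FPKM in hy5-2 HL and at 83.6, 75.7, 69.1 and 94.8 FPKM in hy5-2 LL (log2 change 1.79, adjusted p = 0.00029). LHCB7 rose by 1.00 (adjusted p = 7.8e-05).

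Subunits of the photosystems and electron carriers followed the antenna, with 22 of 30 lower, 1 higher and a median of -0.51. PSAD2, which docks ferredoxin at photosystem I, fell by 1.43, and PSAN and PSAO by 1.03 each. The single higher gene was FD1, a leaf ferredoxin. It was at 1091, 1407, 1357 and 1593 FPKM in hy5-2 HL and at 302, 295, 286 and 354 FPKM in hy5-2 LL, with a log2 change of 2.13 (adjusted p = 8.78e-12). Of 28 tested genes of tetrapyrrole synthesis, the route to chlorophyll and haem, 20 were lower and 1 higher, with a median of -0.50. PORB (AT4G27440, chr4:13725546-13727440), which reduces protochlorophyllide in light, was at 104, 90.7, 107 and 87.7 FPKM in hy5-2 HL and at 575, 579, 541 and 316 FPKM in hy5-2 LL (log2 change -2.32, SE 0.18, adjusted p = 3.35e-09). CAO, which makes chlorophyll b, fell by 1.25. The ferrochelatase FC2, on the haem branch, was the single higher gene (0.42, adjusted p = 0.000181). Of 8 genes of chlorophyll breakdown, 2 were higher and 1 lower, 37.5% called against 43.5% of all tested genes. NYC1, a chlorophyll b reductase, rose by 1.34 (adjusted p = 1.36e-07).

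Carbon metabolism moved the other way. Of 29 genes of the Calvin-Benson cycle and photorespiration, 20 were higher and 1 lower in hy5-2, with a median of 0.50. The Rubisco small subunit gene RBCS2B was at 5092, 6495, 5923 and 6376 FPKM in hy5-2 HL and at 2686, 2290, 2204 and 1991 FPKM in hy5-2 LL (log2 change 1.38, SE 0.15, adjusted p = 2.93e-07). Its transcript is 94.36% identical over 656 bases to a sister gene, so the split among Rubisco small subunit genes is uncertain. The aldolase FBA1 rose by 1.35 and the photorespiratory enzyme GOX1 by 1.13. GAPA2 was the lower gene (-0.61, adjusted p = 5.91e-05). Among 32 genes of starch and sugar metabolism, 17 were higher and 3 lower, with a median of 0.36. GPT2 (AT1G61800, chr1:22824414-22826902), a glucose 6-phosphate carrier of the plastid envelope, was at 82.2, 90.61, 96.2 and 91.4 FPKM in hy5-2 HL and at 9.91, 14.2, 17.9 and 14.0 FPKM in hy5-2 LL (log2 change 2.63, SE 0.30, adjusted p = 4.39e-07). The HL values lay close together and well above all LL values. The starch synthase GBSS1 rose by 1.96 and the beta-amylases BAM5 and BAM3 by 2.19 and 1.46. The envelope carriers TPT and GPT1 fell by 0.71 and 0.60. Without replicate 4 of hy5-2 LL 5 genes of this list were lower.

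**Figure D3:**
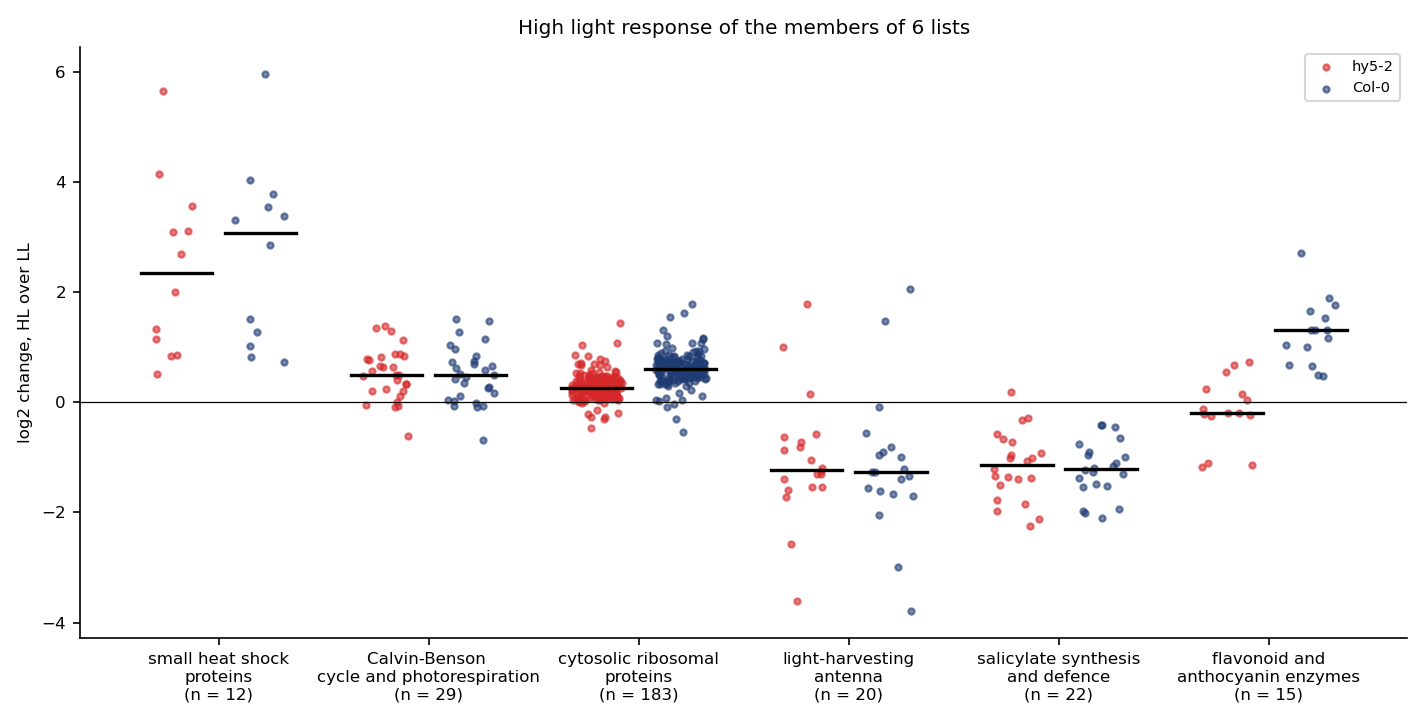
Log2 change, HL over LL, of each tested member of 6 lists in hy5-2 (red, left of each pair) and Col-0 (blue, right); points are genes and bars are list medians. The medians in hy5-2 and Col-0 were 0.50 and 0.50 for the Calvin-Benson cycle and photorespiration and -1.22 and -1.26 for the antenna, against -0.19 (-0.47 to 0.29 when 1 library is left out) and 1.31 for flavonoid and anthocyanin enzymes.

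Photoprotective genes split. Of 16 tested, 4 were higher and 6 lower in hy5-2, with a median of -0.02. PSBS, which triggers heat dissipation in photosystem II, rose by 0.46 (adjusted p = 0.00432), and PGRL1B, of cyclic electron flow, by 0.96 (adjusted p = 2.63e-06). The early light-induced proteins ELIP1 and ELIP2, which bind free chlorophyll, were lower and are described with the genes that ran against Col-0. Of 21 genes of carotenoid and tocopherol synthesis, 11 were higher and 3 lower. The beta-carotene hydroxylases BCH1 and BCH2, which make xanthophylls, rose by 1.74 and 1.73. BCH1 was at 93.5, 102, 88.4 and 109 FPKM in hy5-2 HL and at 29.5, 27.1, 31.6 and 26.8 FPKM in hy5-2 LL (adjusted p = 1.64e-07). CCD4, a carotenoid-cleaving enzyme, fell by 1.12 and LUT2, the lycopene epsilon-cyclase, by 0.55. Of 32 tested antioxidant enzymes, 15 were higher and 5 lower, with a median of 0.33; without replicate 3 of hy5-2 LL 2 were lower. Cytosolic APX1 was at 1157, 1236, 1233 and 1139 FPKM in hy5-2 HL and at 544, 541, 534 and 544 FPKM in hy5-2 LL, a spread within groups far smaller than the log2 change of 1.14 (SE 0.09, adjusted p = 5.62e-09). Peroxisomal CAT2 rose by 1.16, whereas CAT3 fell by 0.76 and CAT1 by 0.52. APX2, a cytosolic peroxidase known from high light, did not pass the filter. It was at 0.138, 0.261, 0.601 and 0.677 FPKM in hy5-2 HL and at 0, 0, 0.0224 and 0 FPKM in hy5-2 LL. In ascorbate synthesis, VTC2, the GDP-galactose phosphorylase, rose by 0.77 and VTC4 fell by 1.11. Of 17 tested genes of photosystem repair, 5 were higher and 5 lower, and 2 were higher and 5 lower without replicate 4 of hy5-2 LL. Without replicate 4 of hy5-2 HL none was higher.

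Salicylate genes had the highest share of lower members among the defence and hormone lists. Of 22 tested genes of salicylate synthesis and defence, 19 were lower and none higher in hy5-2, with a median of -1.14; without replicate 4 of hy5-2 LL, 16 were lower. NIMIN1, which binds the salicylate receptor NPR1, was at 2.83, 0.859, 1.81 and 1.47 FPKM in hy5-2 HL and at 9.12, 12.1, 10.3 and 15.9 FPKM in hy5-2 LL (log2 change -2.25, SE 0.26, adjusted p = 7.97e-07). The groups did not overlap. WRKY38 fell by 1.97, the regulator SARD1 by 1.85 and the synthesis gene ICS1 by 1.01. The output genes PR1, PR2 and PR5 were not called, with values of -0.95, 0.18 and -0.71. Jasmonate genes hardly moved as a list, with 1 of 27 higher and 2 lower. Among 30 auxin genes 10 were lower and 2 higher, 40% called against 43.5% of all tested genes, and IAA14 fell by 1.45. Of 8 tested type-A response regulators, which cytokinin induces, 5 were lower and 1 higher, and ARR5 and ARR9 fell by 0.92 each. Of 17 tested cold-responsive genes, 6 were lower and 1 higher, 41.2% called against 43.5% of all tested genes. LTI30, COR413IM1 and GOLS3 fell by 2.11, 2.1 and 2.04. For abscisic acid, 4 of 18 were higher and none lower, a share of 22.2% against 23.1% higher among all tested genes. The list's median was 0.006, and CYP707A2, which inactivates the hormone, rose by 1.56. Of 11 tested stress zinc finger and ERF genes, 6 were lower and none higher, and 2 were lower without replicate 2 of hy5-2 LL. ZAT10 was at 3.36, 3.98, 5.95 and 6.00 FPKM in hy5-2 HL and at 3.77, 5.88, 5.6 and 4.47 FPKM in hy5-2 LL, and ZAT12 at 2.13, 1.34, 1.86 and 2.43 FPKM in hy5-2 HL against 1.93, 3.16, 2.91 and 3.57 FPKM in hy5-2 LL. Neither was called (adjusted p = 0.909 and 0.219). Touch-responsive TCH3 averaged 6.30 FPKM in hy5-2 HL and 20.3 FPKM in hy5-2 LL; the part of touch in these lists was not tested.

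Light signalling genes responded in part. HYH (AT3G17609, chr3:6023844-6024710), the close homologue of HY5, was at 56.8, 66.9, 51.9 and 67.4 FPKM in hy5-2 HL and at 30.2, 35.7, 25.6 and 33.2 FPKM in hy5-2 LL, with no overlap (log2 change 0.94, SE 0.10, adjusted p = 3.07e-07). Its rise in hy5-2 was smaller than in Col-0, where the log2 change was 1.89, and the difference was -0.94 (SE 0.15, adjusted p = 0.002). The UV-B receptor gene UVR8 rose by 0.58 and SPA3, a partner of COP1, by 0.69. Of 11 tested B-box factors, 5 were higher and 1 lower, 54.5% called against 43.5% of all tested genes. BBX31 was at 34.9, 53.4, 46.7 and 65.2 FPKM in hy5-2 HL and at 11.8, 11.1, 9.81 and 12.0 FPKM in hy5-2 LL (log2 change 2.04). BBX32 was at 12.4, 16.1, 14.69 and 15.6 FPKM in hy5-2 HL and at 3.71, 5.43, 4.24 and 4.98 FPKM in hy5-2 LL (log2 change 1.49, SE 0.21, adjusted p = 7.72e-06). Of 19 tested photoreceptors and phytochrome-interacting factors, 10 were lower and 3 higher, with PIF4 down by 1.18 and the blue light receptor CRY1 by 0.96. Of 23 tested clock genes, 7 were higher and 3 lower, 43.5% called, the same share as over all tested genes. RVE8 and LUX rose by 1.00 and 1.02. The plastid regulator GNL rose by 1.76 and the sigma factor SIG4 by 0.94.

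Beside the lists, the rule for named genes picked single genes with large changes among 438 rises and 492 falls that qualified. AMT1-2, an ammonium transporter, was at 105, 132, 143 and 148 FPKM in hy5-2 HL and at 9.04, 9.90, 7.75 and 17.0 FPKM in hy5-2 LL (log2 change 3.52, SE 0.19, adjusted p = 1.9e-11). AT3G10185, of a gibberellin-regulated family, rose by 3.96, and it overlaps the opposite gene AT3G10180 by 155 bases. The lipid transfer protein genes LTP4 and LTP3 rose by 3.82 and 3.32, with LTP4 spread over 21.4 to 91.7 FPKM in hy5-2 HL. AT3G24463 rose by 3.23 but shares 1359 bases of the same strand with AT3G24460, so its fragments are uncertain. On the other side, AT5G48490 was at 1.54, 1.76, 0.232 and 0.858 FPKM in hy5-2 HL and at 24.1, 39.1, 35.4 and 34.6 FPKM in hy5-2 LL (log2 change -4.08, adjusted p = 3.6e-10). The CCCH zinc finger gene ATCTH fell by 3.46, and the glutaredoxins GRXC11 and GRXS2 by 3.07 and 2.73. Also among the 10 largest falls were AT5G02160 (-3.03), the lectin-like gene LLP (-3.01), the expansin EXPB1 (-2.76), PCR1 (-2.67) and AT3G15450 (-2.64).

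Lists of growth, nutrient and glucosinolate genes gave further counts. Of 183 tested cytosolic ribosomal proteins, 73 were higher and none lower in hy5-2, with a median of 0.26; leaving out 1 library gave 53 to 84 higher. The share called was 39.9%, against 23.1% higher among all tested genes.  RPS9C rose by 1.45 (adjusted p = 6.85e-11). Of 7 nucleolar ribosome-assembly factors, 6 were higher, and 3 without replicate 1 of hy5-2 LL. NUC1 rose by 0.47 and FIB2 by 0.67, FIB2 in 6 of the 8 refits. Aliphatic glucosinolate genes were higher in 9 of 17 cases and lower in none, with a median of 0.34, whereas of 9 tested indole glucosinolate and camalexin genes 4 were lower and 1 higher, with a median of -0.69, and 2 were lower without replicate 4 of hy5-2 HL. In sulfate assimilation 5 of 17 tested genes were higher and none lower. The share higher was 29.4%, against 23.1% of all tested genes. APR2 rose by 1.01. In nitrogen assimilation 3 of 11 were higher and 4 lower, 63.6% called against 43.5% of all tested genes. The nitrite reductase NIR1 rose by 0.92 and ASN1, an asparagine synthetase, fell by 1.35. Of 17 aquaporins 6 were higher and 3 lower, 52.9% called against 43.5% of all tested genes. PIP2-3 rose by 1.84, though its transcript is 90.69% identical over 988 bases to that of PIP2B. Of 22 tested expansins and xyloglucan endotransglucosylases, 4 were higher and 6 lower, 45.5% called against 43.5% of all tested genes. EXPA8 fell by 2.2.

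Members of the flavonoid and phenylpropanoid lists were among the genes whose responses differed between hy5-2 and Col-0. Of all tested genes 51.6% changed in Col-0. Of 15 tested flavonoid and anthocyanin enzymes, 1 was higher and 3 lower in hy5-2, with a median log2 change of -0.19, while 13 were higher and none lower in Col-0, with a median of 1.31. The hy5-2 median ran from -0.47 to 0.29 when 1 library was left out, and was above 0 without replicate 4 of hy5-2 HL. The interaction test called 4 of the 15 enzymes (26.7%), against 0.652% of all tested genes. All 4 had a lower response in hy5-2 than in Col-0, as had 111 of the 116 calls of that test among all tested genes. CHS (AT5G13930, chr5:4488476-4490264), the chalcone synthase at the start of the pathway, was at 197, 171, 116 and 97.6 FPKM in hy5-2 HL and at 243, 251, 264 and 558 FPKM in hy5-2 LL. It was at 401, 478, 493 and 525 FPKM in Col-0 HL and at 375, 260, 285 and 275 FPKM in Col-0 LL. All hy5-2 HL libraries lay below all hy5-2 LL libraries, and all Col-0 HL libraries above all Col-0 LL libraries. The log2 change was -1.13 (SE 0.23, adjusted p = 0.0005) in hy5-2 and 0.67 (SE 0.23, adjusted p = 0.0201) in Col-0, and the difference was -1.81 (SE 0.33, adjusted p = 0.00851). The Col-0 call held in 6 of the 8 refits without 1 Col-0 library. Without the hy5-2 LL library at 558 FPKM the change in hy5-2 was -0.85 and the difference -1.52 (adjusted p = 0.0053). CHIL, a helper of chalcone synthase, averaged 26.52 ± 10.6 FPKM in hy5-2 HL and 55.0 ± 7.84 FPKM in hy5-2 LL, against 89.1 ± 18.0 FPKM in Col-0 HL and 38.5 ± 3.81 FPKM in Col-0 LL (SD, n = 4 each; difference of responses -2.27, adjusted p = 0.000494). FLS1 was lower in hy5-2 (-1.17, adjusted p = 0.0286), in 3 of the 8 fits. SCPL10 was the higher enzyme (0.68). The anthocyanin regulator MYB75 was at 30.2, 39.9, 27.7 and 27.6 FPKM in hy5-2 HL and at 25.1, 20.7, 16.7 and 21.7 FPKM in hy5-2 LL, and was not called (0.55, adjusted p = 0.09), although its groups did not overlap. Of 14 tested flavonoid regulators, MYB75 among them, 1 was higher and 2 lower in hy5-2, with medians of 0.04 in hy5-2 and 0.41 in Col-0. The interaction test called 1 of the 14 (7.14%), against 0.652% of all tested genes. Called the same way in both genotypes were 3 of the 14, against 35.8% of all tested genes.

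General phenylpropanoid genes gave 1 of 18 higher and 9 lower in hy5-2, with a median of -0.27, against 9 higher and 3 lower in Col-0, with a median of 0.20. The interaction test called 5 of the 18 (27.8%), against 0.652% of all tested genes. All 5 had a lower response in hy5-2 than in Col-0, as had 111 of the 116 calls of that test among all tested genes. Called the same way in both genotypes were 4 of the 18, against 35.8% of all tested genes. PAL1, the entry enzyme, averaged 39.2 ± 12.3 FPKM in hy5-2 HL and 63.1 ± 10.1 FPKM in hy5-2 LL, against 95.6 ± 14.8 FPKM in Col-0 HL and 52.0 ± 9.84 FPKM in Col-0 LL (SD, n = 4 each). The 2 responses differed by -1.58 (SE 0.30, adjusted p = 0.00903). UGT84A2, which makes sinapoyl glucose, and 4CL3 differed by -1.67 and -1.75 (adjusted p = 0.00178 and 0.000891). SNG1, of the same sinapate branch, fell by 1.28 in hy5-2 and by 1.42 in Col-0. Its responses were not called different (adjusted p = 0.872).

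The early light-induced protein gene ELIP1 (AT3G22840, chr3:8084405-8085669) had the lowest difference among list members. It was at 2.37, 2.87, 2.08 and 2.59 FPKM in hy5-2 HL and at 14.2, 15.5, 20.2 and 29.1 FPKM in hy5-2 LL. In Col-0 it was at 245, 254, 141 and 193 FPKM in HL and at 26.0, 32.7, 43.1 and 26.7 FPKM in LL. Every hy5-2 HL library thus lay below every hy5-2 LL library, and the order was opposite in Col-0. The log2 change was -2.53 in hy5-2 (SE 0.46, adjusted p = 0.00014) and 2.65 in Col-0, a difference of -5.18 (SE 0.65, adjusted p = 0.00024). ELIP2 had lower levels, with means of 0.427 ± 0.243 FPKM in hy5-2 HL and 4.68 ± 3.23 FPKM in hy5-2 LL (SD, n = 4 each). Its difference was -3.48, with an adjusted p = 0.105, and its calls held in 3 of 8 refits in hy5-2 (-1.83) and in 2 of 8 in Col-0 (1.65). Without replicate 4 of hy5-2 LL its adjusted p in hy5-2 was 0.109. GPX7, a glutathione peroxidase of the chloroplast, averaged 11.7 ± 2.2 FPKM in hy5-2 HL and 9.40 ± 0.34 FPKM in hy5-2 LL, against 43.4 ± 4.71 FPKM in Col-0 HL and 9.94 ± 0.889 FPKM in Col-0 LL (SD, n = 4 each; difference -1.75, adjusted p = 0.000891). RUP2, a repressor of the UV-B receptor, and CRY3 differed by -1.53 and -1.26. The ascorbate gene GME rose by 0.76 in hy5-2, less than in Col-0 (difference -0.58, adjusted p = 0.0214), which held in 11 of the 16 refits without 1 library.

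**Figure D4:**
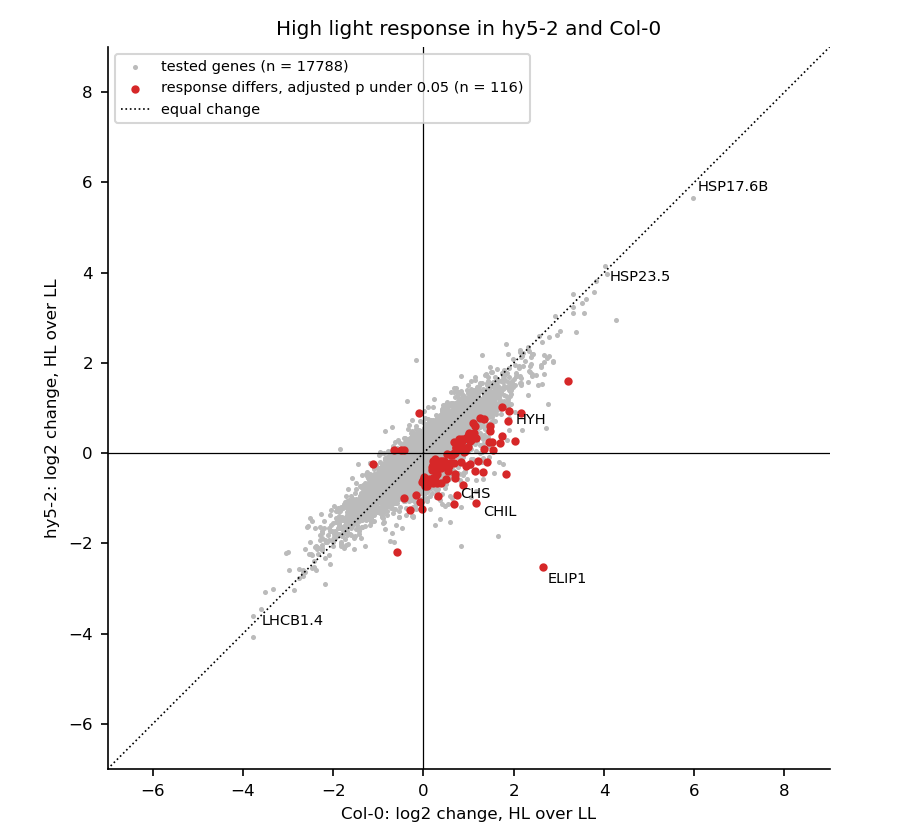
Log2 change, HL over LL, in hy5-2 (vertical axis) against Col-0 (horizontal axis) for 17788 tested genes; the dotted line marks equal change. Red points are the 116 genes whose 2 responses differed at an adjusted p under 0.05, of which 111 lie below the line.

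Across the genome the 2 responses were set side by side; they share no libraries. Of the 7732 genes called in hy5-2, 6375 (82.45%) were called the same way in Col-0, which is 69.43% of the 9182 Col-0 calls. Of 867 genes (4.87%) at least 2-fold higher in Col-0, 792 (91.35%) were also higher in hy5-2, and of 673 (3.78%) at least 2-fold lower, 650 (96.58%) were also lower. The interaction test called 116 genes (0.652%), 5 (0.0281%) with a higher and 111 (0.624%) with a lower response in hy5-2. Of the lower ones, 30 (0.169%) differed at least 2-fold. An unadjusted p under 0.05 was given to 2123 genes (11.9%), against 51.0% in the hy5-2 response and 56.4% in the Col-0 response. With rescaled libraries the split was 9 and 36, and without replicate 4 of hy5-2 LL it was 9 and 308. A gene that the test did not call is not shown to respond alike. Of the 111 genes, 92 were called higher in Col-0 HL, while in hy5-2 HL 27 were called higher, 48 lower and 36 neither. Cytosolic ribosomal proteins had medians of 0.26 in hy5-2 and 0.60 in Col-0, where 170 of 183 were higher, and none was called in the interaction.

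Genes called in opposite directions numbered 37 (0.208%), and all 37 were lower in hy5-2 HL and higher in Col-0 HL. This set was noticed after the values were seen. Of the 37, 29 were called in the interaction and 14 held in hy5-2 in all 8 refits. Between hy5-2 HL and hy5-2 LL 25 did not overlap, against 36.7% of all tested genes, a share that also covers uncalled genes. The set was chosen by calls on these same values, so the interaction and overlap counts are no separate support for it. Beside ELIP1, CHS, CHIL, PAL1 and UGT84A2, the set held LPR1, a multicopper oxidase (-0.45 in hy5-2, in 7 of the 8 refits, and 1.83 in Col-0), and the ABC protein gene ATNAP9 (-0.57 and 0.49). It also held the sigma factor SIG5 (-0.47 and 0.69) and the thylakoid protease FTSH5 (-0.30 and 0.57). Their calls in hy5-2 held in 7 and 6 of the 8 refits. Without replicate 4 of hy5-2 LL, SIG5 and FTSH5 were not called in hy5-2 (adjusted p = 0.0787 and 0.0773), while their differences from Col-0 were (adjusted p = 0.0133 and 0.00365). PAL2 behaved likewise (adjusted p = 0.0912 in hy5-2 and 0.0443 for the difference), and its call in hy5-2 held in 5 of the 8 refits.

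**Figure D5:**
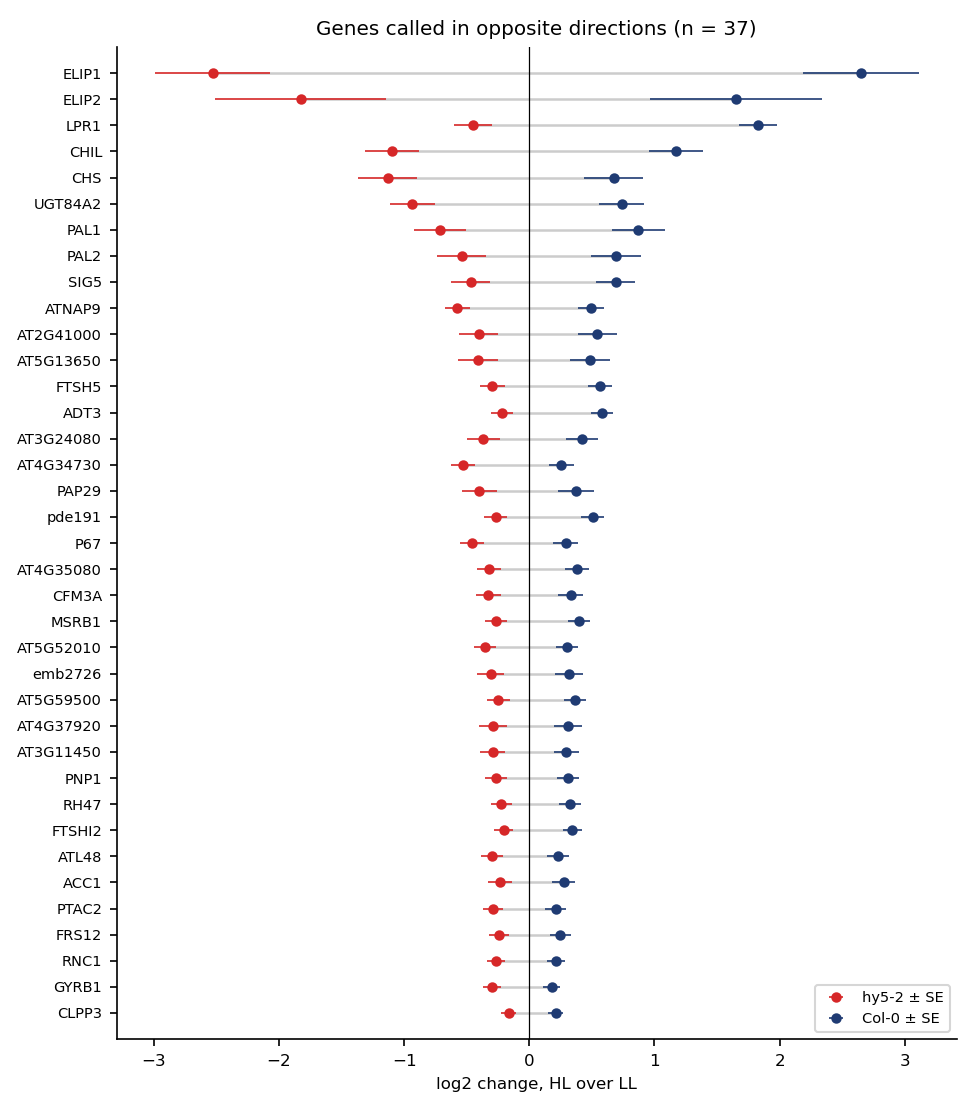
Log2 change, HL over LL, with its standard error, in hy5-2 (red) and Col-0 (blue) for the 37 genes called in opposite directions, ordered by the difference between the responses. All 37 lie below 0 in hy5-2 and above 0 in Col-0, from ELIP1 at the top to CLPP3 at the bottom.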

How the data were processed

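Leaf RNA of 24 plants was sequenced, 4 in each of 6 groups of genotype and light. Per the submitters' processing notes, CASAVA, HISAT2 2.0.5, HTSeq 0.6.1, DESeq2 1.20.0 and DESeq were used with TAIR10; their roles, strand use and gene lengths are not given in the sources used here. The authors deposited FPKM for 34218 genes, of which 8980 were at 0 in every library. Of the gene IDs, 32548 matched the TAIR10.1 annotation, 99.95% of these with the same start and end.

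Depth was recovered from the FPKM steps. With the rounded mean transcript length, values were whole fragments within 0.05 in all libraries for 93.3% of 25238 genes above 0. Depth ran from 35408723 to 49341933 fragments per library.

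Genes reaching 1 FPKM in 4 or more libraries entered the test on log2(FPKM + 1), a scale that understates the change of low genes. Group means over all 24 libraries were fitted with limma 3.58.1 (eBayes with trend) in R 4.3.3; the interaction is the hy5-2 response minus the Col-0 response. P-values are two-sided and adjusted by Benjamini-Hochberg within each contrast; calls need an adjusted p under 0.05. The fit was tested on simulated data. Each p-value sets a difference of group means, or of responses, against the spread between plants estimated over all 24 libraries. Similar transcripts (blastn 2.17.0, at least 90% identity over 100 bases) and overlapping genes were searched for. They are given as uncertain beside some of the named genes, and other named genes with such a match carry no remark.

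Members and lists were chosen with earlier results of these data known. Of 771 list entries written, 14 whose symbol did not match their gene ID were dropped, and ribosomal proteins were added by description. Named genes were a fixed set of 10, the 10 largest rises and falls at least 2-fold that did not overlap and were called without each library in turn, the 3 largest called rises and falls per list, and list members called in the interaction. Values of other list members are also given where they describe a list. Alternatives were another pseudocount, other filters, rescaled libraries, fewer libraries, a 2-fold rule, a replicate block, and leaving out each library. A limma voom fit to recovered fragments and the 2-unit heat shock motif were added after seeing the data. Replicate numbers come from the labels and did not pair the samples.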

Additional observations from a re-analysis of the deposited data

Results flagged for a closer look

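The genes taken up gave 474 groups of 4 hy5-2 libraries, and groups that were constant or under 1 FPKM throughout were not examined. In 24 groups 1 library was set apart from the other 3 by more than Dixon's 95% critical value, and chance flags about 1 examined group in 20. Of these, 15 were in replicate 4 of hy5-2 LL.
In that library these genes were above the other 3 hy5-2 LL libraries, whose range stands in brackets: CHS at 558 FPKM (243 to 264), FTSH1 at 140.5 FPKM (104 to 105), FTSH5 at 499.5 FPKM (395 to 407), PAL2 at 62.8 FPKM (48.9 to 49.8), ADT3 at 42.8 FPKM (34.5 to 35.1), AT3G24080 at 33.1 FPKM (20.2 to 22.2) and FRS12 at 10.5 FPKM (8.49 to 8.78). Those below the others were LHCB7 at 12 FPKM (21.1 to 22.6), PORB at 316 FPKM (540 to 579), CAO at 138 FPKM (172 to 175), VTE5 at 13.5 FPKM (27.8 to 29.5), LUT2 at 41 FPKM (53.7 to 55.6), HSP90.5 at 83.6 FPKM (119 to 127), VTC4 at 53.8 FPKM (66.1 to 68.5) and IAA14 at 11.7 FPKM (16.3 to 17.1).
In other libraries, PSAD2 was at 264 FPKM in hy5-2 HL replicate 1 (300 to 304), PSAD2 was at 926 FPKM in hy5-2 LL replicate 1 (735 to 766), FAR1 was at 9.18 FPKM in hy5-2 HL replicate 4 (8.07 to 8.12), FAR1 was at 5.58 FPKM in hy5-2 LL replicate 1 (4.73 to 4.75), XTH9 was at 45.9 FPKM in hy5-2 HL replicate 1 (3.47 to 7.07), TPT was at 565 FPKM in hy5-2 HL replicate 3 (514 to 521), GPT1 was at 11.6 FPKM in hy5-2 HL replicate 1 (8.46 to 8.59), CA1 was at 2502 FPKM in hy5-2 LL replicate 1 (2035 to 2085), and ARP2 was at 11.6 FPKM in hy5-2 LL replicate 1 (15.8 to 16).

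By the interaction test 20 list members responded differently in hy5-2 and Col-0. All 20 had a lower response in hy5-2 than in Col-0, as had 111 of all 116 calls. Their differences in log2 change were HY5 (-1.60), HYH (-0.94), ELIP1 (-5.18), CHS (-1.81), FTSH1 (-0.62), FTSH5 (-0.86), SIG5 (-1.16), CHIL (-2.27), CHI (-1.28), UGT78D2 (-1.28), MYB4 (-0.65), UGT84A2 (-1.67), PAL1 (-1.58), PAL2 (-1.23), C4H (-0.86), 4CL3 (-1.75), GPX7 (-1.75), GME (-0.58), RUP2 (-1.53) and CRY3 (-1.26). Of these, FTSH1 was called in 5, CHI in 13, UGT78D2 in 9, MYB4 in 6, PAL2 in 5 and GME in 11 of the 16 refits without 1 library, and the others in all 16.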

How the results depend on the processing

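The count of genes called in the hy5-2 response (7732) stayed within 1.5 times under each alternative except the 2-fold rule (988), and lay between 6564 and 7930 when 1 library was left out. For the Col-0 response (9182) the 2-fold rule gave 1540, and leaving out 1 library gave 8345 to 8662. The interaction count (116) was the least stable. It was 45 with rescaled libraries, 45 with the replicate block, 292 with only the libraries compared and 30 with the 2-fold rule, and 63 to 317 when 1 library was left out. The extremes came without Col-0 HL replicate 4 (63) and without hy5-2 LL replicate 4 (317), and counts under 78 also came without Col-0 LL replicates 1 and 3, Col-0 HL replicate 2, hy5-2 LL replicate 2 and hy5-2 HL replicate 3 (71 to 76); the cause was not tested.

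With the replicate number as a block, the hy5-2 response gave 7294 calls and the Col-0 response 8792. Deviations of same-numbered HL and LL libraries had correlations in hy5-2 of -0.28, 0.0475, -0.202 and -0.0117, and for Col-0 they were -0.326, 0.279, -0.201 and -0.144, so the numbers were not taken as pairs. Of the 8 HL libraries, Col-0 replicate 2 alone correlated best with its own number. The added voom fit gave 7042, 8293 and 97 calls for the hy5-2 response, the Col-0 response and the interaction. Opposite calls numbered 20 with rescaled libraries and 25 to 38 under the other alternatives, against 37. When 1 library was left out, uncalled values of ZAT10 (-0.141 to 0.0885), MYB4 (-0.132 to 0.0251) and C4H (-0.0181 to 0.184) changed sign in hy5-2. Rescaling turned the Col-0 median of the aquaporin list to -0.00342 and of the nitrogen list to -0.0704; under rescaling no list median changed sign in hy5-2. Depth limits genes near 0 such as APX2. When 1 library was left out, 7 list medians crossed 0 in hy5-2: flavonoid enzymes (-0.471 to 0.292), flavonoid regulators (-0.0885 to 0.0898), photosystem repair (-0.026 to 0.218), photoprotection (-0.0371 to 0.0456), sigma factors (-0.0672 to 0.0472), protein folding in the endoplasmic reticulum (-0.134 to 0.0224) and abscisic acid (-0.0696 to 0.0494). Without hy5-2 LL replicate 4, the counts higher and lower were 1 and 2 for flavonoid enzymes, 1 and 7 for phenylpropanoids, 4 and 3 for heat shock factors, 3 and 5 for photoprotection, 4 and 3 for sigma factors, 5 and 3 for the clock, 0 and 5 for cold, 0 and 5 for type-A regulators, 0 and 2 for jasmonate, 1 and 10 for auxin, 4 and 1 for abscisic acid, 3 and 6 for expansins, 0 and 3 for indole glucosinolates, 19 and 1 for the Calvin-Benson cycle, 10 and 3 for carotenoids, 16 and 3 for antioxidants, 17 and 5 for starch and 63 and 1 for ribosomal proteins.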

Other observations

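Only 5 genes had a higher response in hy5-2 than in Col-0 by the interaction test; they are named here after their values were seen. FLA9, a fasciclin-like arabinogalactan protein gene, averaged 26.7 ± 3.00 FPKM in hy5-2 HL and 14.0 ± 2.33 FPKM in hy5-2 LL, against 14.69 ± 0.742 FPKM in Col-0 HL and 15.74 ± 1.77 FPKM in Col-0 LL (SD, n = 4 each). It was the only one of the 5 called in hy5-2 (log2 change 0.89). The other 4, NAC056, LPPD, AT2G36895 and AT1G19740, had log2 changes of -0.24, 0.08, 0.06 and 0.08 in hy5-2. All 4 were lower in Col-0 HL than in Col-0 LL by their means, with NAC056 at 2.51 FPKM in Col-0 HL and 6.49 FPKM in Col-0 LL.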
